A study of Mus musculus with 6 samples.

Results

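The genes described here are 32 genes of ribosome biogenesis and of the MYC programme of growth, measured in lineage-depleted mouse bone marrow labelled Stag2KO or Stag2WT. They comprise nucleolar factors that process ribosomal RNA, RNA polymerase I genes, Myc and its partners, and growth metabolism genes described as MYC targets. Members were found by gene symbol. All 32 were among the 33924 genes listed in the count table and among the 15708 expressed highly enough to be tested. There were 3 Stag2KO and 3 Stag2WT libraries. Stag2 is a gene of the cohesin complex, which links sister chromatids and organises chromatin into loops. Lineage depletion with magnetic beads is meant to remove mature cells, and a library holds progenitors of several kinds beside the mature cells that remain. How and in which cells Stag2 was deleted, and the strain, age and sex of the mice, are not stated in the labels used here. Whether each sample is a different mouse is not stated either, so a p-value here covers the spread among these libraries, which may be technical.

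Reads assigned to genes ranged from 29435651 to 37722325 per library. Levels are given as CPM, counts scaled to a common library size with TMM factors, and errors as SD over the 3 libraries of a group. Stag2 stood at 169 to 187 CPM in the Stag2KO libraries and at 324 to 338 CPM in the Stag2WT libraries. The share of reads outside annotated genes was 11.7% ± 0.984 in Stag2KO and 9.24% ± 0.725 in Stag2WT libraries (n = 3 each, two-sided exact permutation p = 0.1, the smallest possible). All 12 markers of stem and early progenitor cells were expressed, with summed levels of 677 to 805 CPM in Stag2KO and 660.3 to 729.8 CPM in Stag2WT.

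Ribosomes are assembled in the nucleolus. RNA polymerase I transcribes a long precursor RNA there, small nucleolar RNA particles modify it, and separate sets of factors cut and fold it into the small and the large subunit. MYC is a transcription factor that binds DNA as a pair with MAX, at sequences such as CACGTG, and raises expression of these factors together with genes of nucleotide and polyamine synthesis and of translation.

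Most of these genes had slightly lower levels in Stag2KO marrow, and few passed the test. Of the 32 members 5 were lower, 1 was higher and 26 were not called at an adjusted p under 0.05 (edgeR quasi-likelihood test, Benjamini-Hochberg over all tested genes). The 5 that fell were Odc1, Nolc1, Fbl, Nop58 and Nop16, and the 1 that rose was Mycn. Calls made up 18.8% of the members and 21.2% of all tested genes. By direction, 10.5% of all tested genes were called lower and 10.7% higher. The members' share lies near that background and is no result about the list. In bulk RNA, fewer cells of a type and less RNA per cell cannot be told apart.

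What most members shared was a small shift of 1 sign. The log2 fold change, Stag2KO over Stag2WT, was below 0 for 30 of 32 members, against 49.3% of all tested genes. Its median was -0.11 over the members and 0.01 over all tested genes. For comparison, the members' median log2 CPM varied between libraries of a group with a pooled SD of 0.0818. The 49.3% and the median of 0.01 over all tested genes belong to the main fit, with TMM scaling and no covariate. Without TMM scaling 26 of 32 members were below 0 and their median was -0.06. Calls over all tested genes moved as well in that fit, from 1686 higher and 1647 lower to 1981 higher and 1316 lower. With the share of reads in no gene as a covariate 29 of 32 were below 0 and the median was -0.29. That share was higher in every Stag2KO library than in any Stag2WT library, so this fit cannot cleanly separate it from genotype. The groups lay wholly apart for 7 members that were lower and 1 that was higher, against 21.2% and 22.2% of all tested genes. The plot of members by library shows each value.

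**Figure D1:**
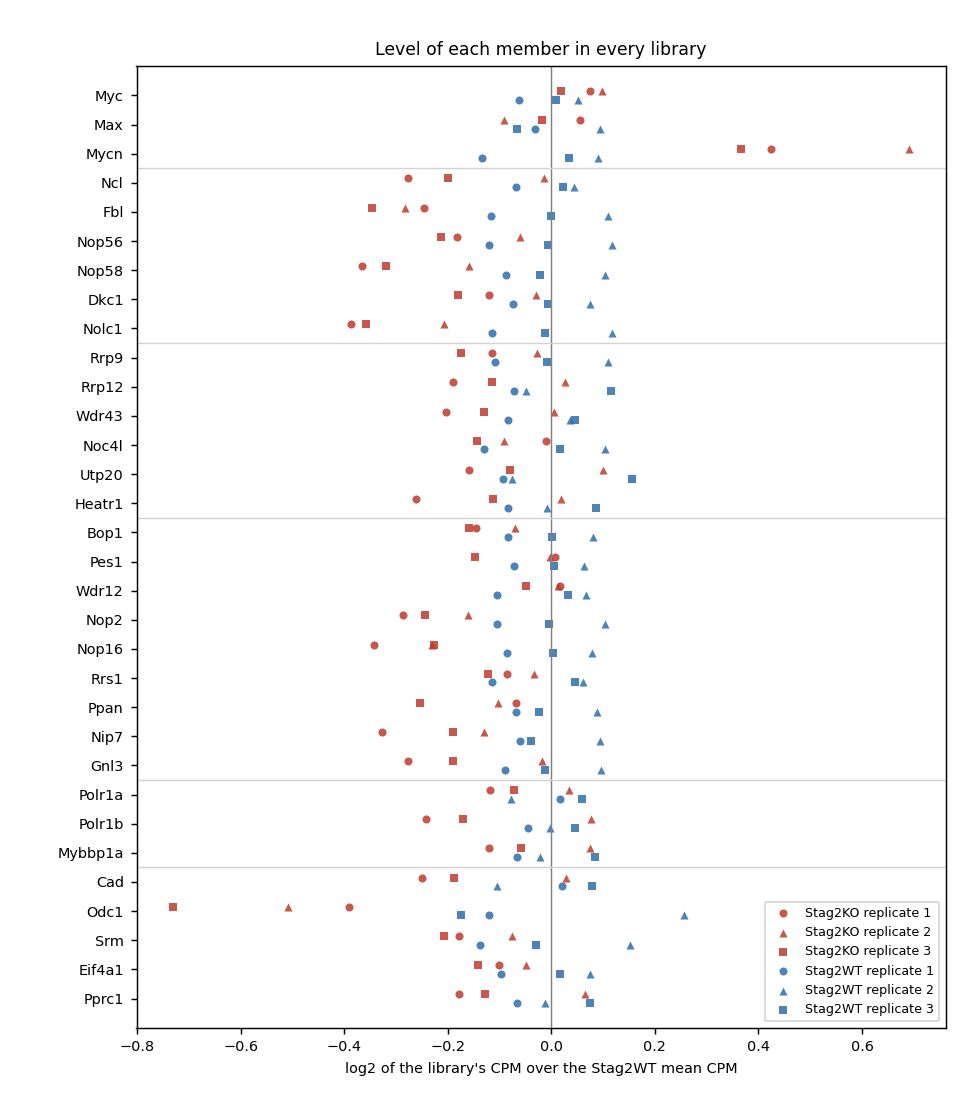
Level of each of the 32 members in every library, as log2 of the library's CPM over the Stag2WT mean CPM; red marks are the 3 Stag2KO and blue marks the 3 Stag2WT libraries, with the marker shape giving the replicate, and grey lines separate the roles. Mycn lies to the right in all 3 Stag2KO libraries and Odc1 to the left, while for 24 members the red and blue ranges overlap.

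Libraries of a group differed from each other in these genes together. Stag2KO replicate 2 held the highest value of its group for 24 of 32 members, and Stag2WT replicate 1 the lowest of its group for 28 of 32. Over all tested genes those shares were 33.8% and 28.8%. The summed level of the members was 5803, 6423 and 5825 CPM in Stag2KO replicates 1, 2 and 3, and 6290, 6941 and 6710 CPM in Stag2WT replicates 1, 2 and 3. Stag2KO replicate 2 thus lay above Stag2WT replicate 1, and the sums of the groups overlapped. Leaving out a library changed the calls: members called lower numbered 1, 2 and 0 without Stag2KO replicates 1, 2 and 3, and 6, 0 and 1 without Stag2WT replicates 1, 2 and 3. No member was called higher in any of these 6 edgeR fits. With the share of reads in no gene as a covariate, 0 members and 67 of all tested genes were called. As stated above, that share went with genotype.

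Promoter windows of 300 bases, from 250 before to 50 after the annotated start, were found for 26 of the 32 members in RefSeq (GRCm38.p6). Bop1, Fbl, Myc, Rrp12, Rrs1 and Srm had no entry. The MYC and MAX site CACGTG, which reads the same on both strands, occurred in 7 of the 26, or 26.9%, against 11.5% of the 9995 tested genes with a window and 7.15% of all 32851 windows. A variant, CACGCG (on the other strand CGCGTG), occurred in 7 of the 26 as well, against 19.1% of those tested genes and 9.27% of all windows. The 7 members with CACGTG were Eif4a1, Max, Mybbp1a, Nop2, Pes1, Utp20 and Wdr43. None of these 7 was called by edgeR, 1 of them, Nop2, had an unadjusted edgeR p under 0.05, and Nop2 was the only 1 called by DESeq2. Their median log2 fold change was -0.05, against -0.13 for the 19 members without that match. Among the 9995 tested genes with a window 10.4% of those with CACGTG and 11.9% of those without were called lower. A match describes letters in a window and is not a measured binding site. A site outside the 300 bases is missed, so a window without a match does not show that the gene lacks one. Shown are the windows of the 4 members that fell and have an entry, and of Nop2, which missed the threshold narrowly and holds CACGTG. Capitals mark CACGTG or the variant on either strand, and each is read 5′ to 3′ on the gene's own strand.
Nolc1: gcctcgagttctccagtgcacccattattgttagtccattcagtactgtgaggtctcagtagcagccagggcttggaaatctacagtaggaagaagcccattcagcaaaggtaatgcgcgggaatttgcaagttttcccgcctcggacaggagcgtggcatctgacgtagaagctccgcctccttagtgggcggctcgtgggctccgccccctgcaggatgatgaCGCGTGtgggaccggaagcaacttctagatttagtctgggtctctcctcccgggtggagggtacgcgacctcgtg
Nop58: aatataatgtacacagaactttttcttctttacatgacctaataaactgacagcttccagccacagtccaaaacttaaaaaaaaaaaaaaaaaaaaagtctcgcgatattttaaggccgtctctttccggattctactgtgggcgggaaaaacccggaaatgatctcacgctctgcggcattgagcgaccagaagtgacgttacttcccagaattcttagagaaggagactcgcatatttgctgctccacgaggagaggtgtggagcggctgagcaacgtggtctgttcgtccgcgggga
Nop16: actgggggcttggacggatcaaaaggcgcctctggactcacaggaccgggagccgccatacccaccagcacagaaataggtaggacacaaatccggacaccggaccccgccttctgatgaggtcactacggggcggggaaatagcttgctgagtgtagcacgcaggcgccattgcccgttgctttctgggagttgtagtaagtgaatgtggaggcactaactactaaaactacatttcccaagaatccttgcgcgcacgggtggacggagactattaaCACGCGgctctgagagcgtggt
Odc1: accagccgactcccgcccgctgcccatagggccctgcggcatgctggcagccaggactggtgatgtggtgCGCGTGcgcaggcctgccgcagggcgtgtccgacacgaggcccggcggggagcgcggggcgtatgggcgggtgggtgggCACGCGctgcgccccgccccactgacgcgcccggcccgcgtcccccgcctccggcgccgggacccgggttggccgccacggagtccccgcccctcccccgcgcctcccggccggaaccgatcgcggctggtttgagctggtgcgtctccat
Nop2: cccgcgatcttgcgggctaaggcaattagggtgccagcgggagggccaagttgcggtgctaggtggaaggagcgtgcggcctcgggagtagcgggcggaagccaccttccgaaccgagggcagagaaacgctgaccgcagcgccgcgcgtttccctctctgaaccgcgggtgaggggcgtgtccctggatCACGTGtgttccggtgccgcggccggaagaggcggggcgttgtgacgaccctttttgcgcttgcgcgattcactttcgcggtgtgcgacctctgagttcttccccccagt
The windows lie at chr19:46075597-46075896 on the plus strand for Nolc1, chr1:59684756-59685055 on the plus strand for Nop58, chr13:54590025-54590324 on the minus strand for Nop16, chr12:17544623-17544922 on the plus strand for Odc1 and chr6:125131633-125131932 on the plus strand for Nop2. Nolc1 and Nop16 hold the variant once and Odc1 holds it in 2 places, while the Nop58 window holds neither motif. Neither motif was in the window of Mycn.

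Myc, the transcription factor of the programme, showed no detectable difference. It stood at 238, 242 and 229 CPM in Stag2KO replicates 1 to 3 and at 216, 234 and 227 CPM in Stag2WT replicates 1 to 3. The ranges overlap. Its log2 fold change was 0.06 (SE 0.06, 95% interval -0.07 to 0.20, adjusted p = 0.465 by edgeR). Max, the obligate partner of Myc, held 154, 139 and 146 CPM in Stag2KO against 145, 158 and 142 CPM in Stag2WT. The log2 fold change of Max was -0.02 (95% interval -0.17 to 0.14) and 0.03 without TMM scaling, not called in either case.

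Mycn, a relative of Myc known in stem cells and embryonic tissue, rose from a low level. It held 7.75, 9.31 and 7.44 CPM in Stag2KO replicates 1 to 3 and 5.26, 6.14 and 5.91 CPM in Stag2WT replicates 1 to 3. Every Stag2KO library lay above every Stag2WT library. The log2 fold change was 0.50 (SE 0.14, edgeR adjusted p = 0.0422), so that Stag2KO held 141.5% of the Stag2WT mean. Behind these values are 226 to 342 reads in Stag2KO and 189 to 215 in Stag2WT. The call was lost without any 1 of the libraries, with adjusted p of 0.0767, 0.137, 0.0678, 0.111, 0.0757, 0.0829 without Stag2KO replicates 1, 2 and 3 and Stag2WT replicates 1, 2 and 3 in that order.

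Of 12 stem and early progenitor markers 4 were higher, 0 lower and 8 not called (lower: 1 at an unadjusted edgeR p under 0.05, 1 by DESeq2). Their summed levels, given above, overlapped between the groups, and no marker of the list was at 0 reads in any library. Log2 fold changes of 4 of the 12 were below 0. These were Gfi1b (-0.72, edgeR adjusted p = 0.0746, groups without overlap), Procr (-0.31), Flt3 (-0.28) and Ly6a (-0.14), none of them called. Meis1, a homeobox gene of stem cells, had a rise of 0.55 in log2 fold change (edgeR adjusted p = 0.0206) that was not called without Stag2WT replicate 1 (0.052) or 2 (0.0676). Cd34, a progenitor surface gene, had a rise of 0.53 (adjusted p = 0.0222) that was not called without Stag2KO replicate 2 (0.0656) or 3 (0.0578), or Stag2WT replicate 1 (0.0631) or 2 (0.0881). Higher calls in this list numbered 3, 2 and 3 without Stag2KO replicates 1, 2 and 3, and 1, 1 and 3 without Stag2WT replicates 1, 2 and 3. The part of stem and progenitor cell numbers in the Mycn value was not tested.

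Other genes of the Myc network went both ways. Of 20 tested genes 3 were higher, 2 lower and 15 not called, and the median log2 fold change was 0.13. The share called was 25%, against 21.2% of all tested genes. Usp28, a deubiquitinase that stabilises MYC protein, rose from 21.5 ± 2.42 CPM in Stag2WT to 29.9 ± 1.07 CPM in Stag2KO (log2 fold change 0.48, adjusted p = 0.0149). Mnt, a MAX partner that opposes MYC, rose from 41.2 ± 3.62 CPM in Stag2WT to 50.7 ± 0.368 CPM in Stag2KO (0.30, adjusted p = 0.0318). Aurka, a mitotic kinase that also binds N-MYC protein, fell by 0.35 (adjusted p = 0.0208). Ruvbl1, a helicase subunit of chromatin complexes and a MYC cofactor, fell by 0.33 (adjusted p = 0.0298). The Usp28 call held without each library, at adjusted p up to 0.0469. Aurka was not called without Stag2KO replicate 1 (0.0513) or 2 (0.069). Mnt kept its call only without Stag2WT replicate 1 (0.0319), and adjusted p ran from 0.06 to 0.0863 without each of the others. Ruvbl1 kept its call only without Stag2WT replicate 1 (0.023), and adjusted p ran from 0.0542 to 0.0952 without each of the others. Higher calls numbered 1, 2 and 1 without Stag2KO replicates 1, 2 and 3, and 2, 1 and 3 without Stag2WT replicates 1, 2 and 3. Lower calls numbered 1, 0 and 2 without Stag2KO replicates 1, 2 and 3, and 2, 1 and 1 without Stag2WT replicates 1, 2 and 3.

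Genes of the small nucleolar RNA particles and of nucleolar organisation held 3 of the 5 falls, Fbl and Nop58 of the particles and Nolc1 of their scaffold. Box C/D particles methylate ribosomal RNA with fibrillarin, the product of Fbl, as the enzyme and Nop56 and Nop58 as core proteins. Box H/ACA particles convert uridine to pseudouridine with dyskerin, the product of Dkc1. All 6 members of this role had a fold change below 0, 3 were called lower, where 10.5% of all tested genes were, and 0 higher (higher: 0 at an unadjusted edgeR p under 0.05, 0 by DESeq2), and the median log2 fold change was -0.22. Fbl held 94.3, 91.9 and 87.9 CPM in Stag2KO replicates 1 to 3 and 103, 121 and 112 CPM in Stag2WT replicates 1 to 3. The groups did not overlap. Fbl fell by 0.29 on the log2 scale (SE 0.07, edgeR adjusted p = 0.0245), to 81.7% of the Stag2WT mean.

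Nop58 held 221, 254 and 228 CPM in Stag2KO against 267, 305 and 279.8 CPM in Stag2WT, again without overlap. The log2 fold change of Nop58 was -0.28 (SE 0.08, edgeR adjusted p = 0.0396), which left 82.4% of the Stag2WT mean. Its partner Nop56 held 250.5, 273 and 245 CPM in Stag2KO against 262, 308 and 283 CPM in Stag2WT. For Nop56 the ranges overlapped and the log2 fold change was -0.15 (SE 0.08, 95% interval -0.33 to 0.03, adjusted p = 0.199). The difference between the fold changes of Nop56 and Nop58 was not tested.

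Nolc1, which encodes a nucleolar scaffold protein that binds these particles, held 203, 229.6 and 207 CPM in Stag2KO against 245, 287 and 263 CPM in Stag2WT. All Stag2KO values lay below all Stag2WT values, and Nolc1 fell by 0.32 on the log2 scale (SE 0.08, edgeR adjusted p = 0.0281). Ncl, encoding the abundant nucleolar protein nucleolin, held 1283, 1538 and 1353 CPM in Stag2KO against 1481, 1601 and 1579 CPM in Stag2WT. Its ranges overlapped through Stag2KO replicate 2, and the log2 fold change of -0.16 (95% interval -0.37 to 0.05, adjusted p = 0.24) was not called. Dkc1 was at 178 ± 9.40 CPM in Stag2KO against 192 ± 9.92 CPM in Stag2WT (log2 fold change -0.11, 95% interval -0.26 to 0.04) and was not called.

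The 3 calls of this role were lost when any of several libraries of either group was left out, where fewer libraries are compared. The log2 fold changes in those fits stayed below 0, from -0.35 to -0.23 for Fbl, -0.34 to -0.22 for Nop58 and -0.37 to -0.25 for Nolc1. Fbl was not called without Stag2KO replicate 1 (0.0531), 2 (0.0656) or 3 (0.0892), or Stag2WT replicate 2 (0.0597) or 3 (0.0562). Nop58 was not called without Stag2KO replicate 1 (0.12) or 3 (0.124), or Stag2WT replicate 2 (0.0966) or 3 (0.0757). Nolc1 was not called without Stag2KO replicate 1 (0.0889) or 3 (0.0921), or Stag2WT replicate 2 (0.0681) or 3 (0.0608). Without TMM scaling Fbl kept its call (adjusted p = 0.0461), while Nop58 (0.0925) and Nolc1 (0.0611) did not.

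Outside the members, 13 further genes of these particles and of nucleolar structure were tested, with 2 lower, 0 higher and 11 not called (higher: 0 at an unadjusted edgeR p under 0.05, 0 by DESeq2). The share called was 15.4%, against 21.2% of all tested genes. Nhp2, a core protein of box H/ACA particles, fell from 97.1 ± 11.7 CPM in Stag2WT to 76.7 ± 1.22 CPM in Stag2KO (log2 fold change -0.34, adjusted p = 0.0284). Npm1, encoding nucleophosmin, an abundant nucleolar protein often mutated in human myeloid leukaemia, fell from 1338 ± 94.2 CPM in Stag2WT to 1086 ± 58.6 CPM in Stag2KO (-0.30, adjusted p = 0.039). Nhp2 was not called without Stag2KO replicate 1 (0.0768), 2 (0.0676) or 3 (0.0769), or Stag2WT replicate 3 (0.055). Npm1 kept its call only without Stag2WT replicate 1 (0.0443), and adjusted p ran from 0.0612 to 0.125 without each of the others. Lower calls in this list numbered 0, 0 and 0 without Stag2KO replicates 1, 2 and 3, and 2, 1 and 0 without Stag2WT replicates 1, 2 and 3.

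**Figure D2:**
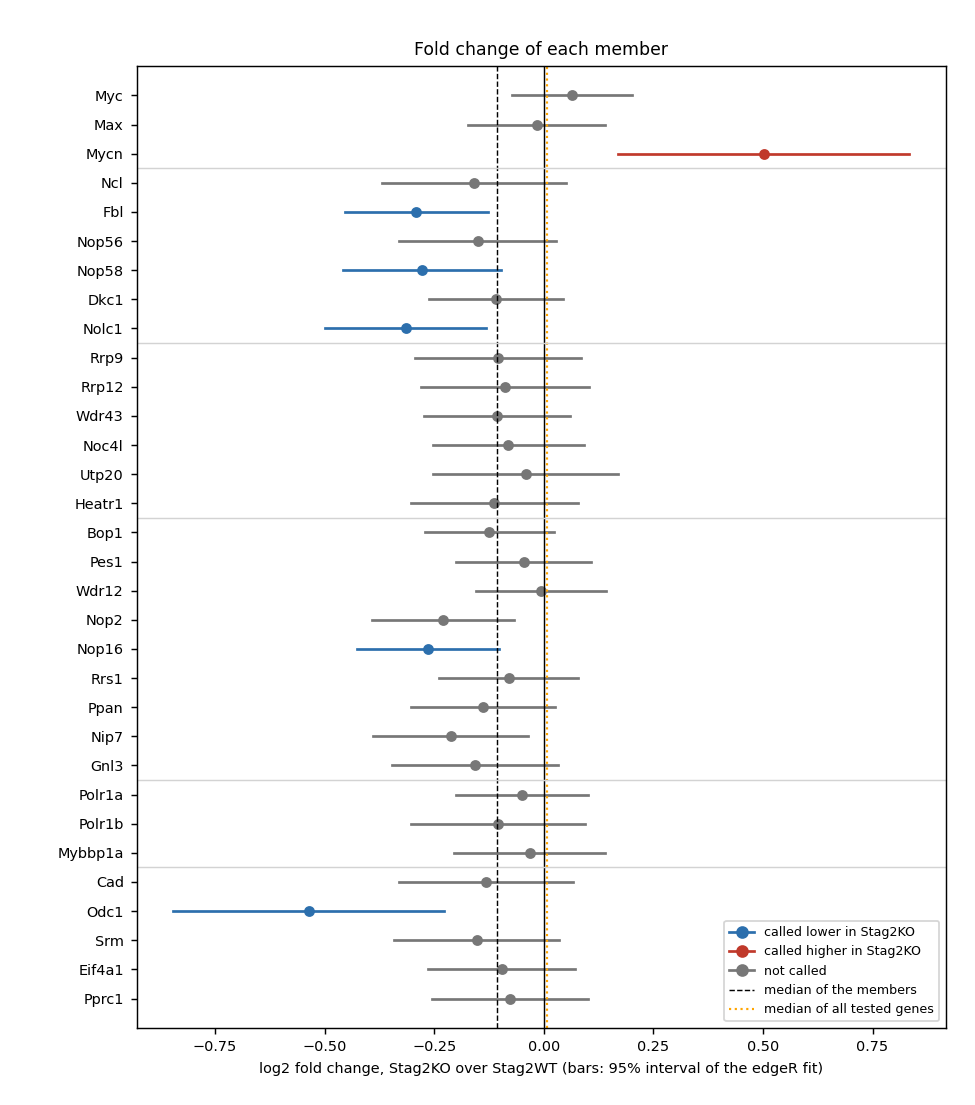
Log2 fold change of each member, Stag2KO over Stag2WT, with the 95% interval of the edgeR fit; blue and red mark genes called lower and higher at an adjusted p under 0.05, the dashed line is the members' median of -0.11 and the dotted line the median of 0.01 over all tested genes. Of the 32 points 30 lie to the left of 0, and 24 of the 26 grey intervals span 0, those of Nop2 and Nip7 being the exceptions.

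None of the 6 members of the small subunit processome, the large assembly that folds and cuts the precursor of the small subunit RNA, was called by edgeR (lower: 0 at an unadjusted edgeR p under 0.05, 0 by DESeq2, 0 by limma-voom, and the same counts for higher). Heatr1, which links transcription of ribosomal RNA to its processing, held 128, 155 and 142 CPM in Stag2KO against 144, 152 and 162 CPM in Stag2WT (log2 fold change -0.11, 95% interval -0.30 to 0.08). Stag2KO replicate 2 lay among the Stag2WT values. Wdr43, a processome subunit, was at 161 ± 12.0 CPM in Stag2KO against 173 ± 8.54 CPM in Stag2WT (-0.11). Rrp9, a protein of the U3 particle that guides the early cuts, was at 38.3 ± 1.96 CPM in Stag2KO against 41.2 ± 3.12 CPM in Stag2WT (-0.10). The ranges of both overlapped. Rrp12, which acts in maturation and export, was at 50.03 ± 3.87 CPM in Stag2KO against 53.2 ± 3.87 CPM in Stag2WT (-0.09). Noc4l, an assembly factor, was at 79.1 ± 3.71 CPM in Stag2KO against 83.7 ± 6.75 CPM in Stag2WT (-0.08). Utp20 was at 97.8 ± 9.09 CPM in Stag2KO against 101 ± 9.90 CPM in Stag2WT (-0.04, and 0.00 without TMM scaling). Its interval, -0.25 to 0.17, was the widest of the 6.

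In the wider list of small subunit factors 6 of 48 tested genes were lower, 0 higher and 42 not called (higher: 0 at an unadjusted edgeR p under 0.05, 0 by DESeq2). This is 12.5% called, and the median log2 fold change was -0.10. Rcl1, a factor of the early cuts, fell by 0.33 on the log2 scale (edgeR adjusted p = 0.0272) and was not called without Stag2KO replicate 1 (0.0816) or 3 (0.0878), or Stag2WT replicate 2 (0.064) or 3 (0.057). Utp3 fell by 0.26 (adjusted p = 0.0292) and was not called without Stag2KO replicate 1 (0.0924) or 2 (0.0871), or Stag2WT replicate 1 (0.0578) or 2 (0.0648). Both are processome genes, as is Nop14, which fell by 0.23 (adjusted p = 0.0332) and kept its call only without Stag2WT replicate 1 (0.0459), and adjusted p ran from 0.0619 to 0.112 without each of the others. Emg1, a methyltransferase, fell by 0.31 (adjusted p = 0.0368) and was not called without Stag2KO replicate 1 (0.0765), 2 (0.103) or 3 (0.093). Lower calls of the list numbered 0, 1 and 1 without Stag2KO replicates 1, 2 and 3, and 5, 1 and 2 without Stag2WT replicates 1, 2 and 3. Without TMM scaling 2 were lower.

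Among the 9 members of large subunit assembly, 1 was lower, 0 higher and 8 not called (higher: 0 at an unadjusted edgeR p under 0.05, 0 by DESeq2). Nop16, a nucleolar factor of large subunit precursors, held 47.3, 51.0 and 51.2 CPM in Stag2KO against 56.5, 63.3 and 60.02 CPM in Stag2WT. The groups did not overlap, and Nop16 fell by 0.26 on the log2 scale (SE 0.07, edgeR adjusted p = 0.0328). It kept its call only without Stag2WT replicate 1 (0.0382), and adjusted p ran from 0.072 to 0.107 without each of the others. Without TMM scaling it was not called either (adjusted p = 0.0766).

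Nop2 and Nip7 also had groups that did not overlap, without passing the test. Nop2, a methyltransferase of the large subunit RNA, held 96.2, 105 and 99.0 CPM in Stag2KO against 109, 126 and 117 CPM in Stag2WT (log2 fold change -0.23, SE 0.07, edgeR adjusted p = 0.0518). It was called by DESeq2 (adjusted p = 0.0358), with median-ratio size factors (0.0485) and without Stag2WT replicate 1 (0.0425). Nip7, a factor in precursor processing, held 47.7, 54.7 and 52.4 CPM in Stag2KO against 57.4, 63.9 and 58.2 CPM in Stag2WT (-0.21, SE 0.08, adjusted p = 0.0825).

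Bop1, Pes1 and Wdr12 encode the PeBoW complex, which acts on the large subunit precursor. Bop1 held 88.5, 93.3 and 87.7 CPM in Stag2KO against 92.4, 104 and 98.0 CPM in Stag2WT (log2 fold change -0.12, 95% interval -0.27 to 0.02). Pes1 was at 113 ± 6.68 CPM in Stag2KO against 117 ± 5.45 CPM in Stag2WT (-0.05, 95% interval -0.20 to 0.11). Wdr12 was at 87.2 ± 2.18 CPM in Stag2KO against 87.5 ± 5.39 CPM in Stag2WT (-0.01, 95% interval -0.15 to 0.14, and 0.04 without TMM scaling). None of these 3 was called by edgeR, had an unadjusted p under 0.05 or was called by DESeq2. Gnl3, encoding the nucleolar GTPase nucleostemin of stem and progenitor cells, was at 178 ± 16.5 CPM in Stag2KO against 198 ± 12.9 CPM in Stag2WT (-0.16, adjusted p = 0.205). Ppan was at 101 ± 6.76 CPM in Stag2KO against 111 ± 6.30 CPM in Stag2WT (-0.14, adjusted p = 0.196). Rrs1, which helps to bring in the 5S particle, was at 63.6 ± 1.98 CPM in Stag2KO against 67.3 ± 4.45 CPM in Stag2WT (-0.08, adjusted p = 0.434). The groups overlapped for Gnl3, Ppan and Rrs1.

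Of 52 further genes listed under large subunit assembly 8 were lower, 0 higher and 44 not called (higher: 1 at an unadjusted edgeR p under 0.05, 0 by DESeq2). The share called was 15.4% and the median log2 fold change -0.10. Ftsj3, a methyltransferase, fell from 189.7 ± 8.90 CPM in Stag2WT to 154 ± 6.72 CPM in Stag2KO (log2 fold change -0.30, edgeR adjusted p = 0.0153) and was not called without Stag2KO replicate 1 (0.0567). Lyar, a nucleolar zinc finger protein gene, fell from 98.9 ± 4.83 CPM in Stag2WT to 78.3 ± 6.11 CPM in Stag2KO (-0.34, adjusted p = 0.0174) and was not called without Stag2KO replicate 1 (0.0506). The RNA helicase gene Ddx24 fell by 0.23 on the log2 scale (edgeR adjusted p = 0.0247) and was not called without Stag2KO replicate 1 (0.0854) or 3 (0.0829), or Stag2WT replicate 1 (0.0571). Ddx27, of the same family, fell by 0.28 (adjusted p = 0.0336) and was not called without Stag2KO replicate 1 (0.103) or 3 (0.112), or Stag2WT replicate 2 (0.0838) or 3 (0.0654). Lower calls of the list numbered 0, 5 and 2 without Stag2KO replicates 1, 2 and 3, and 4, 3 and 4 without Stag2WT replicates 1, 2 and 3. They numbered 2 without TMM scaling and 13 by DESeq2.

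RNA polymerase I genes among the members gave small values. Polr1a and Polr1b, which encode the large catalytic subunits, and Mybbp1a, a nucleolar regulator of ribosomal RNA synthesis, were not called by edgeR, and none of the 3 had an unadjusted p under 0.05 or was called by DESeq2 or limma-voom. Polr1a held 97.1, 108 and 100.3 CPM in Stag2KO against 107, 99.9 and 109.8 CPM in Stag2WT (log2 fold change -0.05, SE 0.07, 95% interval -0.20 to 0.10). Polr1b held 74.6, 93.0 and 78.4 CPM in Stag2KO against 85.5, 88.1 and 91.0 CPM in Stag2WT (-0.10, SE 0.09, 95% interval -0.30 to 0.09). For Polr1b the highest of all 6 values was that of Stag2KO replicate 2. Mybbp1a was at 351 ± 24.5 CPM in Stag2KO against 359 ± 19.4 CPM in Stag2WT (-0.03, 95% interval -0.20 to 0.14, and 0.01 without TMM scaling).

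In the list of other polymerase I subunits and initiation factors 2 of 16 tested genes were lower, 0 higher and 14 not called (higher: 2 at an unadjusted edgeR p under 0.05, 0 by DESeq2). The median log2 fold change was -0.20, and 12.5% of the list was called. Polr1d, a subunit shared with RNA polymerase III, fell from 85.9 ± 6.67 CPM in Stag2WT to 68.9 ± 2.53 CPM in Stag2KO (log2 fold change -0.32, edgeR adjusted p = 0.0187) and was not called without Stag2KO replicate 1 (0.0628) or 2 (0.0552). Polr2f, a subunit common to the nuclear RNA polymerases, fell from 47.7 ± 4.64 CPM in Stag2WT to 37.2 ± 0.652 CPM in Stag2KO (-0.36, adjusted p = 0.0217) and was not called without Stag2KO replicate 1 (0.0539), 2 (0.059) or 3 (0.0719). Lower calls in the list numbered 0, 0 and 1 without Stag2KO replicates 1, 2 and 3, and 2, 2 and 2 without Stag2WT replicates 1, 2 and 3. Higher calls numbered 0, 0 and 0 without Stag2KO replicates 1, 2 and 3, and 0, 0 and 1 without Stag2WT replicates 1, 2 and 3.

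Odc1 showed the largest log2 fold change among the members. It encodes ornithine decarboxylase, the rate-limiting enzyme of polyamine synthesis and a classic MYC target. Odc1 held 222, 204 and 175 CPM in Stag2KO replicates 1 to 3 and 268, 347 and 258 CPM in Stag2WT replicates 1 to 3. Each Stag2KO value lay below each Stag2WT value. The log2 fold change was -0.54 (SE 0.13, edgeR adjusted p = 0.0288). Odc1 was not called without Stag2KO replicate 2 (0.0797) or 3 (0.0683), or Stag2WT replicate 2 (0.0504). Stag2WT replicate 2 holds the highest Odc1 level, and without it the log2 fold change was -0.39.

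Srm, encoding spermidine synthase of the same pathway, held 115, 124 and 113 CPM in Stag2KO against 119, 145 and 128 CPM in Stag2WT (log2 fold change -0.15, SE 0.08, 95% interval -0.34 to 0.04, adjusted p = 0.213). Stag2KO replicate 2 lay above Stag2WT replicate 1. Outside the members, Oaz2, an antizyme that targets ornithine decarboxylase for degradation, rose from 28.6 ± 0.700 CPM in Stag2WT to 39.2 ± 1.82 CPM in Stag2KO (log2 fold change 0.46, edgeR adjusted p = 0.00525). Smox, which oxidises spermine, fell from 30.5 ± 1.33 CPM in Stag2WT to 22.1 ± 0.781 CPM in Stag2KO (-0.47, adjusted p = 0.00637). Both calls held without each library, at adjusted p up to 0.0209 for Oaz2 and up to 0.0292 for Smox. Azin1, an inhibitor of antizymes picked after its values were seen, fell by 0.21 (adjusted p = 0.0488) and was not called without any 1 of the libraries (adjusted p of 0.143, 0.0753, 0.144, 0.0903, 0.0964, 0.0579 without Stag2KO replicates 1, 2 and 3 and Stag2WT replicates 1, 2 and 3).

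Cad, a multienzyme protein that starts pyrimidine synthesis, held 182, 221 and 190.1 CPM in Stag2KO against 219.7, 202 and 229 CPM in Stag2WT (log2 fold change -0.13, SE 0.09, 95% interval -0.33 to 0.07). Here Stag2KO replicate 2 lay above 2 of the Stag2WT libraries. Eif4a1, the RNA helicase of the cap-binding complex in translation, was at 679 ± 22.1 CPM in Stag2KO against 726 ± 43.2 CPM in Stag2WT (-0.10, adjusted p = 0.369). Pprc1, a coactivator of mitochondrial genes, was at 131 ± 11.9 CPM in Stag2KO against 138 ± 6.75 CPM in Stag2WT (-0.08, adjusted p = 0.507). Of the 5 growth metabolism members 1 was lower, 0 higher and 4 not called (higher: 0 at an unadjusted edgeR p under 0.05, 0 by DESeq2).

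Among 49 further genes of growth metabolism and translation 12 were lower, 3 higher and 34 not called. Calls came to 30.6%, against 21.2% of all tested genes, and the median log2 fold change was -0.19. Mthfd1, an enzyme of folate-bound one-carbon units, fell from 328 ± 35.2 CPM in Stag2WT to 191 ± 18.4 CPM in Stag2KO (log2 fold change -0.78, SE 0.10, edgeR adjusted p = 0.00221). Impdh1, an enzyme of guanine nucleotide synthesis, rose from 104 ± 10.1 CPM in Stag2WT to 175 ± 18.2 CPM in Stag2KO (0.76, SE 0.10, adjusted p = 0.00223). Both calls held without each library, at adjusted p up to 0.00756 and 0.0137. Impdh2, the sister gene of Impdh1 and picked after its values were seen, fell by 0.28 (adjusted p = 0.0373) and kept its call only without Stag2WT replicate 1 (0.018), and adjusted p ran from 0.0837 to 0.104 without each of the others. Lower calls of the list numbered 4, 7 and 4 without Stag2KO replicates 1, 2 and 3, and 11, 6 and 7 without Stag2WT replicates 1, 2 and 3. Without TMM scaling 6 were lower and 4 higher.

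The 4 lists of ribosome-making factors outside the members held 129 tested genes together, of which 18 were lower, 0 higher and 111 not called (higher: 3 at an unadjusted edgeR p under 0.05, 0 by DESeq2). The share called was 14%, all lower, against 21.2% of all tested genes called in either direction and 10.5% called lower. Of these 129 genes 105 had a fold change below 0, against 49.3% of all tested genes, and the median was -0.11. Their summed levels were 10120 to 10850 CPM in Stag2KO and 11020 to 12050 CPM in Stag2WT, without overlap, where the members' own sums overlapped. Lower calls numbered 0, 6 and 4 without Stag2KO replicates 1, 2 and 3, and 13, 7 and 8 without Stag2WT replicates 1, 2 and 3. They numbered 7 without TMM scaling and 29 by DESeq2.

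Genes that respond to p53, which nucleolar stress is known to activate, gave 2 lower, 0 higher and 10 not called of 12 tested (higher: 0 at an unadjusted edgeR p under 0.05, 0 by DESeq2). The share called was 16.7%, against 21.2% of all tested genes. Sesn2, a stress-induced regulator of growth signalling, fell from 18.1 ± 0.754 CPM in Stag2WT to 10.7 ± 1.49 CPM in Stag2KO (log2 fold change -0.76, edgeR adjusted p = 0.00509) and kept its call without each library (adjusted p up to 0.0201). Gtse1, also a gene of dividing cells, fell by 0.26 (adjusted p = 0.0431) and kept its call only without Stag2KO replicate 1 (0.0436), and adjusted p ran from 0.0766 to 0.161 without each of the others. Lower calls in the list numbered 2, 1 and 2 without Stag2KO replicates 1, 2 and 3, and 1, 1 and 1 without Stag2WT replicates 1, 2 and 3.

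**Figure D3:**
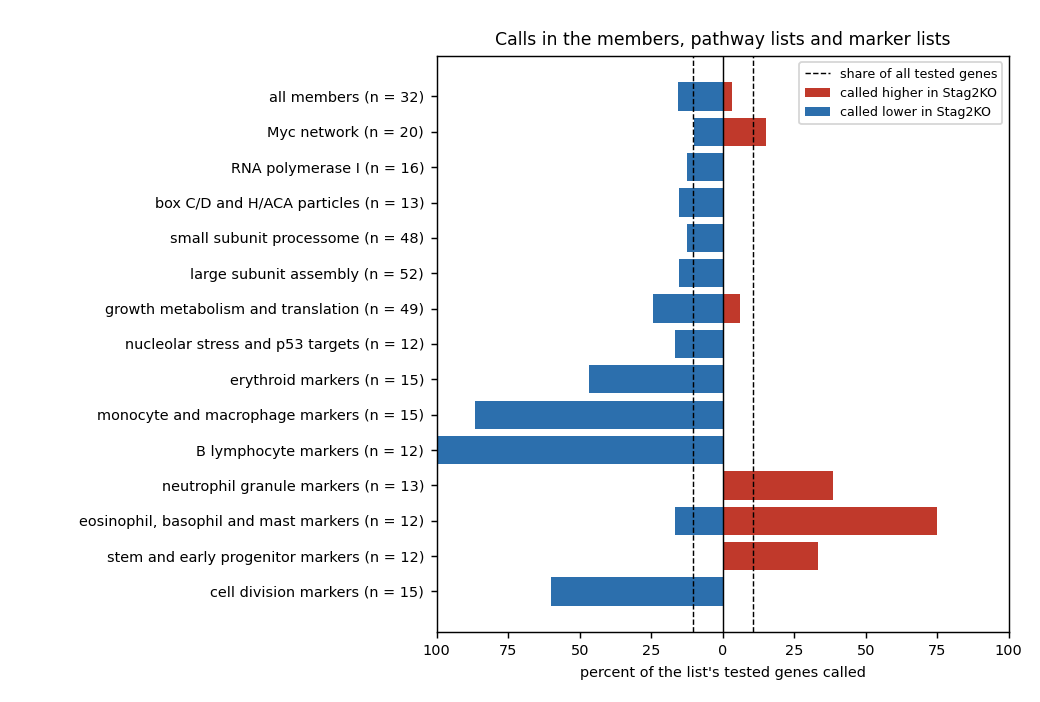
Percent of the tested genes of each list called higher (red, to the right) or lower (blue, to the left) in Stag2KO, with the number of tested genes in brackets; dashed lines give the shares of all tested genes, 10.7% higher and 10.5% lower. The bars of the members and the ribosome-making lists end close to the left dashed line, while those of B lymphocyte, macrophage, cell division and erythroid markers reach far beyond it.

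A feature that the members were not chosen by is the presence of small nucleolar RNA genes within the gene span. By the GENCODE M21 annotation (GRCm38), 9 of the 32 members, or 28.1%, hold at least 1 such gene on their own strand, against 1.64% of 13864 tested genes found in that annotation. These 9 are Ncl, Nop56, Nop58, Dkc1, Wdr43, Ppan, Gnl3, Odc1 and Eif4a1. Nop56 holds 5 of them, among them Snord57 and Snord110, and Nop58 holds 4, among them Snord11 and Snord70. Of the 9 host genes 2, Nop58 and Odc1, were called lower and 7 were not called, and the median log2 fold change was -0.15. Over all 228 tested host genes 29 were lower and 20 higher, with a median of -0.11. Of all tested genes 10.5% were called lower and 10.7% higher. For 12 of the 32 members exons overlap a gene on the opposite strand, such as Idh3b for Nop56 and Pbrm1 for Gnl3, and without a stated strand setting those reads cannot be told apart. The 6 called members are not among these 12.

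Markers of cell division and of other cell types differed between the genotypes beside the members. Cell division markers were lower in 9 of 15, higher in 0 and not called in 6 (higher: 0 at an unadjusted edgeR p under 0.05, 0 by DESeq2). Their summed level was 3780 to 4065 CPM in Stag2KO and 4646 to 5139 CPM in Stag2WT, with no overlap. Birc5, encoding survivin of the chromosomal passenger complex, fell by 0.44 on the log2 scale (edgeR adjusted p = 0.00635) and kept its call without each library. Mcm2, of the replicative helicase, fell by 0.41 (adjusted p = 0.0173) and was not called without Stag2KO replicate 3 (0.0622). Ccne2, encoding cyclin E2, fell by 0.66 (adjusted p = 0.0204) and was not called without Stag2KO replicate 2 (0.0637) or 3 (0.0575). Lower division markers numbered 7, 2 and 1 without Stag2KO replicates 1, 2 and 3, and 8, 4 and 7 without Stag2WT replicates 1, 2 and 3.

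Erythroid markers were lower in 7 of 15, higher in 0 and not called in 8 (higher: 0 at an unadjusted edgeR p under 0.05, 0 by DESeq2), with a summed level of 2847 to 3679 CPM in Stag2KO and 3816 to 6314 CPM in Stag2WT. Car2, a carbonic anhydrase gene of red cell precursors, fell by 1.02 on the log2 scale (edgeR adjusted p = 0.0184) and was not called without Stag2KO replicate 2 (0.0503). The transferrin receptor gene Tfrc, which also stands in the growth metabolism list, fell by 0.61 (adjusted p = 0.0265) and was not called without Stag2KO replicate 1 (0.0592), 2 (0.0691) or 3 (0.0747), or Stag2WT replicate 1 (0.0584). Ank1, of the red cell skeleton, fell by 0.60 (adjusted p = 0.0266) and was not called without Stag2KO replicate 1 (0.0551), or Stag2WT replicate 1 (0.0659) or 2 (0.103). Lower erythroid markers numbered 1, 2 and 2 without Stag2KO replicates 1, 2 and 3, and 1, 3 and 8 without Stag2WT replicates 1, 2 and 3. The erythroid sums of Stag2WT replicates 1, 2 and 3 were 4950, 6314 and 3816 CPM, beside member sums of 6290, 6941 and 6710 CPM. Replicate 2 was highest in both, while the lowest was replicate 3 in the erythroid sum and replicate 1 in the member sum. In Stag2KO replicates 1, 2 and 3 the erythroid sums were 3669, 3679 and 2847 CPM, beside member sums of 5803, 6423 and 5825 CPM. Cell division sums were 4646, 5139 and 4748 CPM in Stag2WT replicates 1, 2 and 3, in the order of the member sums. In Stag2KO they were 4065, 4036 and 3780 CPM, in another order.

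Monocyte and macrophage markers were lower in 13 of 15 and higher in 0 (higher: 0 at an unadjusted edgeR p under 0.05, 0 by DESeq2), with sums of 543 to 736 CPM in Stag2KO and 1590 to 1764 CPM in Stag2WT. B lymphocyte markers were lower in 12 of 12, with sums of 94.3 to 110.3 CPM in Stag2KO and 263 to 398 CPM in Stag2WT. Neutrophil granule markers were higher in 5 of 13 and lower in 0 (lower: 0 at an unadjusted edgeR p under 0.05, 0 by DESeq2), with sums of 18780 to 25570 CPM in Stag2KO and 16280 to 17770 CPM in Stag2WT. The 5 were Mpo, Elane, Prtn3, Ctsg and Chil3. Mpo alone had a mean of 7611 CPM in Stag2KO and 5093 CPM in Stag2WT. The 8 others were not called, with log2 fold changes from -0.62 for Mmp8 to 0.76 for Ngp, 3 of them below 0. Higher neutrophil markers numbered 2, 6 and 1 without Stag2KO replicates 1, 2 and 3, and 2, 2 and 3 without Stag2WT replicates 1, 2 and 3. Of the 12 markers of eosinophils, basophils and mast cells 9 were higher and 2 lower, with sums of 5939 to 7939 CPM in Stag2KO and 3912 to 4352 CPM in Stag2WT. The 2 lower were Prss34 and Mcpt8, protease genes known from basophils. They fell by 0.79 (edgeR adjusted p = 0.000833) and 0.67 (edgeR adjusted p = 0.00105) on the log2 scale. Gata2 and Ms4a2 of the same list rose by 0.39 (edgeR adjusted p = 0.00588) and 0.32 (edgeR adjusted p = 0.0442). Cpa3, at 0.20, was not called. The raised sum of this pooled list thus does not hold for each of its genes. No marker of these lists was at 0 reads in any library. The part of cell type composition and of cell division in the members' values was not tested.

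**Figure D4:**
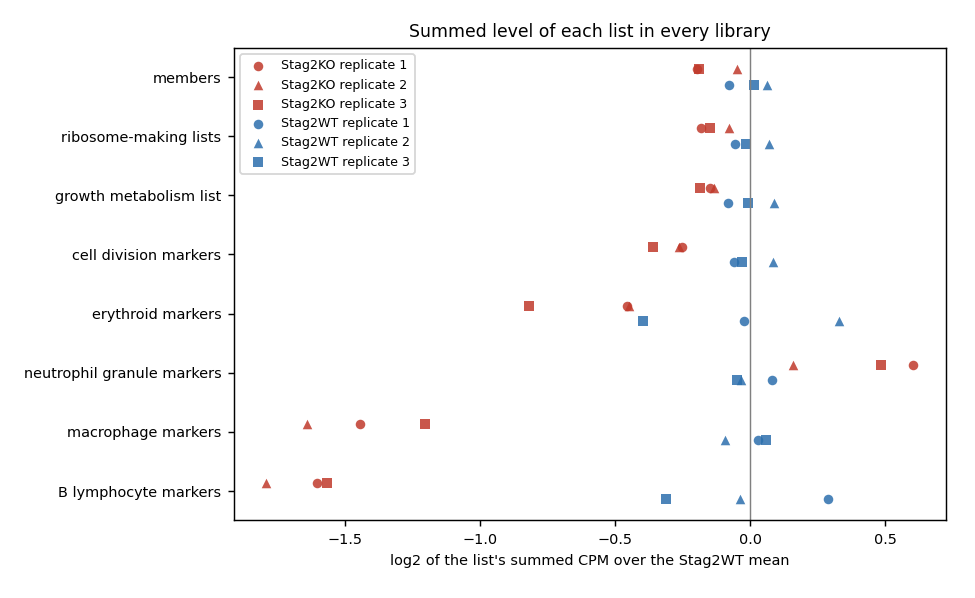
Summed CPM of the members, of the ribosome-making and growth metabolism lists and of 5 marker lists in every library, as log2 over the Stag2WT mean; red marks are Stag2KO and blue marks Stag2WT libraries, with the marker shape giving the replicate. The groups overlap for the members (5803 to 6423 against 6290 to 6941 CPM) and lie apart for the other 7 lists.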

How the data were processed

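Bulk RNA was sequenced from 3 Stag2KO and 3 Stag2WT libraries. The authors deposited raw read counts per gene symbol. The submitters' processing notes name STAR 2.4, HTSeq 0.6.1, DESeq2 and build mm9; the annotation, strand setting and kit are not given in the labels used here. Replicates were numbered in accession order and only name samples. The 5 counter totals that name no gene were left out.

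These counts were fitted with edgeR 4.0.16 in R 4.3.3 (TMM, filterByExpr, robust quasi-likelihood fit, genotype as the only term, Benjamini-Hochberg adjustment over 15708 genes, calls at an adjusted p under 0.05). SE and 95% intervals come from that fit. Within a group, libraries varied beyond counting error (chi-square per degree of freedom 20.9 to 46.7). The fits were tested on simulated data, with planted changes larger than that of any member. That test does not cover changes as small as those of the members. All 32 members are named, and from each further list up to 4 called genes (3 for markers) of smallest p with a mean of at least 5 CPM; 1 marker gene that the rule names is not reported here. Members, lists and tests were chosen with earlier results of these data known. Older symbols were found through RefSeq synonyms, and of 217 pathway genes 211 were found and 210 tested. Alternatives were median-ratio factors, no TMM scaling, 2 filters, DESeq2 1.42.0, limma-voom (limma 3.58.1), no robust estimation, a covariate and each library left out. Promoter sequences are from RefSeq (GRCm38.p6).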

Additional observations from a re-analysis of the deposited data

How the results depend on the processing

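The count of all called genes, 3333, ranged from 2552 to 3887 under the changes of scaling, filter, tool and robust estimation. It was 67 with the share of reads in no gene as a covariate and ran from 1967 to 2548 with 1 library left out, where fewer samples are compared. Of the members 5 were called lower and 1 higher. The covariate gave 0 and 0, library sizes without TMM scaling gave 2 lower, and leaving out 1 library gave 0 to 6 lower and 0 to 0 higher. Without TMM scaling the calls over all tested genes were 1981 higher and 1316 lower, against 1686 and 1647 in the main fit. The members' median log2 fold change of -0.108 was -0.287 with the covariate and ran from -0.154 to -0.08 with 1 library left out. The share of reads in no gene was 11.1% to 12.84% in Stag2KO and 8.807% to 10.08% in Stag2WT libraries, without overlap. It thus went with genotype, and the covariate fit cannot cleanly separate the 2. What else lay behind the covariate result, or behind that of TMM scaling, was not tested. Fold changes near 0 turned sign in members that were not called. Without TMM scaling these were Max (0.026), Utp20 (0.001), Wdr12 (0.036) and Mybbp1a (0.011), and with the covariate Max (0.159). With 1 library left out the log2 fold change ran from -0.053 to 0.034 for Max, from -0.117 to 0.041 for Utp20, from -0.081 to 0.004 for Pes1, from -0.057 to 0.029 for Wdr12 and from -0.088 to 0.01 for Mybbp1a. Over all members and alternatives, 394 fold changes kept direction and side of the threshold, 36 lost a call, 3 gained one and 15 turned sign. No paired analysis was possible because the labels give the libraries no shared replicate numbers. Mycn rests on 189 to 342 reads per library.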

Other observations

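Within a group, the members' levels varied with transcript length. Lengths of the longest protein-coding transcript (GENCODE M21) were found for 32 of 32 members and 84.6% of tested genes, and each library's log2(CPM + 0.5) was taken as a difference from the mean of its group. Across the 32 members the Pearson correlation of that difference with log2 length was -0.53 in Stag2KO replicate 1, 0.50 in Stag2KO replicate 2 and 0.21 in Stag2KO replicate 3. It was 0.46, -0.63 and 0.53 in Stag2WT replicates 1, 2 and 3. Over 13296 tested genes the 6 values ran from -0.27 in Stag2WT replicate 2 to 0.25 in Stag2WT replicate 3. The difference between the group means correlated with length at 0.11 over the members and 0.05 over the tested genes. These are descriptions across genes of the same libraries, and genes are not independent replicates. The cause of the length relation was not tested.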
